A study of Mus musculus with 6 samples.

Results

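Imprinted genes were compared between S1 and S3 erythroid cells of the mouse fetal liver. The set was a list of 50 gene names from known imprinted domains, and a gene counted as measured where at least 1 probe set carried its symbol and no other. That held for 46 of the 50 genes, with 125 probe sets, among 18193 genes measured on the array. H19, Rtl1, Dio3 and Zrsr1 were not analysed here. The genes were listed by name and not by a measured value, although earlier results of these data were known.

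An imprinted gene is read mainly from the copy inherited from 1 parent, because a control region in its domain carries DNA methylation on only the maternal or only the paternal chromosome. These marks are set in the germ line and are normally kept through the loss of methylation in the early embryo, with the help of the zinc finger protein ZFP57, its co-repressor TRIM28 and the maintenance methyltransferase DNMT1. Many of the genes act on fetal growth. Erythroid cells of the fetal liver lose DNA methylation across the genome as they differentiate, which is the setting in which these arrays were made.

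Both groups were unmanipulated Balb/C fetuses, with no transgene or treatment. S1 and S3 are subsets sorted by flow cytometry on the transferrin receptor CD71 and the erythroid protein Ter119, after lineage markers of other blood cells had been used for exclusion, and S3 is the later stage. Each subset was sorted on 3 separate days and each sort gave 1 array, so 3 S1 arrays were compared with 3 S3 arrays. The labels do not say whether replicate numbers mark sort days, so the reported fit is unpaired. Fetuses of S1 carry a developmental stage of embryonic day 12.5 and those of S3 of day 13.5, but the source names of all 6 arrays say 13.5. Thus embryo age and subset cannot be told apart. Total RNA was amplified and hybridised to a 3′-biased expression array, which does not tell the maternal from the paternal transcript. In such sorted populations, fewer cells of a type and less RNA per cell cannot be told apart.

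All values are log2 signals, on which a difference of 1 is a doubling, given in the order of replicates 1, 2 and 3. Bacterial control probe sets, which have no mouse target, gave the background: a probe set was above background on an array where it exceeded the 95th percentile of 27 Bacillus subtilis probe sets, which lay between 1.01 and 1.74. Of 9 erythroid markers tested, 4 rose in S3 and none was called lower or was lower at an unadjusted p under 0.05 by limma. Alas2, the first enzyme of erythroid haem synthesis, read 4.75, 5.30 and 6.48 in S1 and 10.58, 10.09 and 10.50 in S3. In 3 arrays, S1 replicates 1 and 2 and S3 replicate 2, the 5′ probe set of beta-actin lay 2.08 to 2.59 below its 3′ probe set. In the other 3 the gap was 0.45 to 0.56. These classes, called short and long arrays here, cut across the subsets. A fit with the class as a block is therefore given where it changes the call of an imprinted gene. That blocked fit called 41.2% of all genes lower and 5.81% higher, and its median difference of all genes was -0.54. Among the short arrays S3 has 1 array and among the long arrays S1 has 1, so that a test within either class takes the lone array to vary like those of the other subset. The median difference of all 11959 genes tested was -0.33, and was -0.10, -0.07 and -0.06 after median centring, quantile normalisation and trimmed mean scaling.

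Most imprinted genes were detectable. A probe set was above background on all 3 arrays for 34 of the 46 genes in S1 (73.9%) and for 30 in S3 (65.2%), against 59.4% and 56.9% of all genes. Any 1 probe set of a gene sufficed, and the 46 genes had 125 probe sets, against 34945 for all 18193 genes. The shares are therefore not on equal terms. In 28 genes this held in both subsets. Peg10, Ndn, Slc22a18, Sgce, Asb4 and Mirg reached it only in S1, and Usp29 and Ascl2 only in S3. Magel2, Mkrn3, Nnat, Zim1, Phlda2, Nap1l5, Atp10a and Rasgrf1 were above background on at most 2 arrays of a subset. Calcr, the calcitonin receptor gene, and Osbpl5, which encodes a lipid transfer protein, were above background on no array. With the brightest control probe set as background, 31 genes in S1 and 29 in S3 passed on all 3 arrays.

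Of the 46 genes, 38 passed the filter on signal, a mean over all 6 arrays above 1.12, and were tested by limma with Benjamini-Hochberg adjustment over all 11959 genes. At an adjusted p under 0.05, 2 of the 38 (5.26%) were higher in S3, Peg3 and Ddc, against 2.53% of all genes. Peg12, Peg10, Ppp1r9a, Cd81, Inpp5f, Grb10 and Nap1l4 were lower in S3, which is 7 of 38 (18.4%) against 12.8% of all genes. The other 29 did not pass the test. The median difference of the 38 was -0.24, with 15 positive and 23 negative. Arrays of the subsets did not overlap in 4 genes that were higher in S3 and 9 that were lower, against 5.81% and 29.5% of all genes. The split of calls moved with the scaling. Median centring called 3 higher and 3 lower (4% and 8.13% of all genes), trimmed mean scaling 3 and 3 (5.15% and 9.51%) and quantile normalisation 4 and 4 (5.84% and 9.42%). Leaving out S1 replicate 1, 2 or 3 gave 0, 0 and 1 called higher (1.14%, 1.23% and 3.09% of all genes) and 3, 2 and 3 called lower (4.52%, 5.08% and 7.5%). Leaving out S3 replicate 1, 2 or 3 gave 0, 2 and 0 called higher (1.07%, 3.04% and 0.995%) and 4, 4 and 3 called lower (6.88%, 10.6% and 5.64%). At an unadjusted p under 0.05, limma found at least 3 higher in each of these fits. Counts at an unadjusted p, here and elsewhere, have no share of all genes beside them, so they show neither excess nor lack. With no filter on signal, 1 was called higher and 5 lower (1.5% and 7.15% of all genes).

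**Figure D1:**
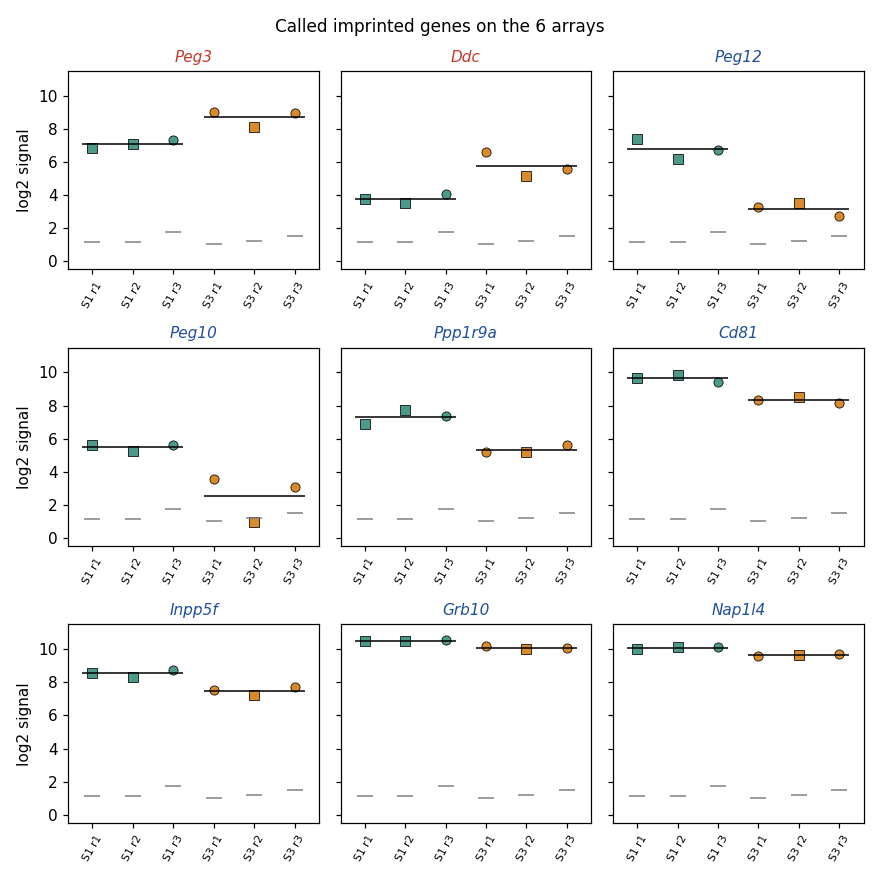
Log2 signal of each imprinted gene that passed the test, on each array (circles, long arrays; squares, short arrays; green, S1; orange, S3), with the subset mean as a black line and the background of that array as a grey tick. In these 9 genes no S3 array lies within the range of the S1 arrays, and the S3 replicate 2 value of Peg10 (0.97) is below background.

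By the parental copy usually active, 16 tested genes are paternally expressed, and 1 of them rose and 3 fell in S3, with a median difference of -0.60, where 2.53% of all genes rose and 12.8% fell. Of the 19 maternally expressed genes none rose and 4 fell, with a median of -0.07; by limma 1 of these 19 was higher and 4 lower at an unadjusted p under 0.05. Neither list was tested against other genes. Ddc, Blcap and Gnas were listed apart because the copy in use varies by tissue or promoter, and of these Ddc rose. Tissue or variant also matters for genes counted under 1 copy, such as Ube3a and Inpp5f, so the grouping is approximate. Whether any of these genes, called or not, was read from only 1 copy in these cells was not measured. Genes higher and genes lower in S3 could share a domain, as Ddc and Grb10 do.

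**Figure D2:**
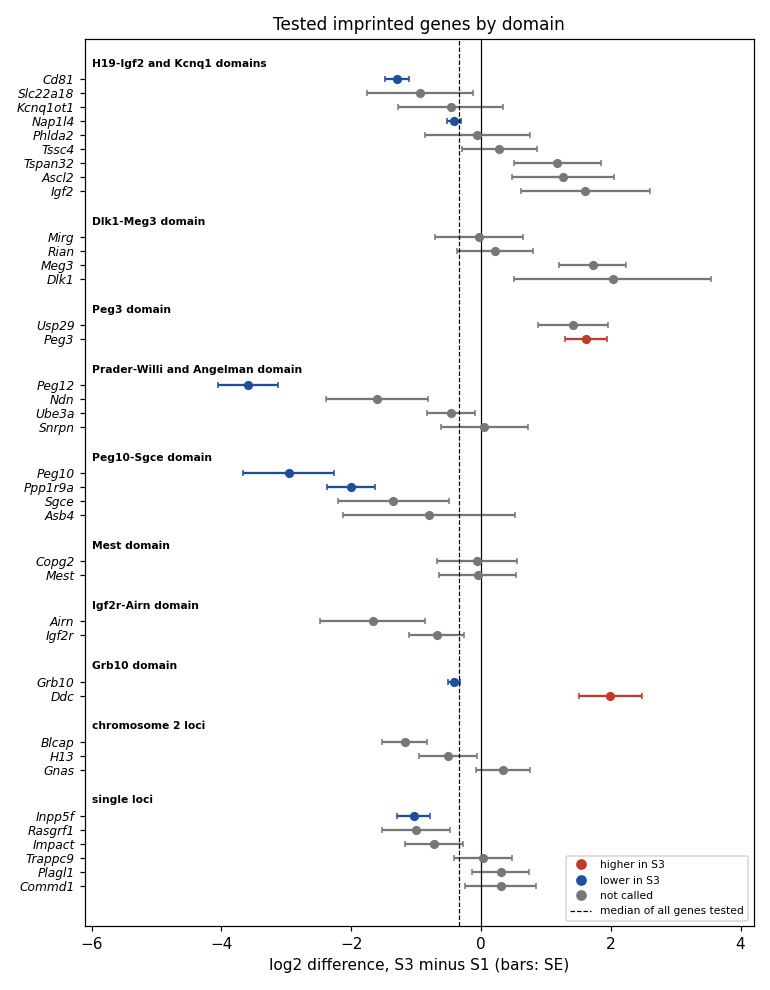
Difference in log2 signal, S3 minus S1, with its standard error, for each of the 38 tested imprinted genes, grouped by domain; red genes rose and blue genes fell in S3, grey genes did not pass the test, and the dashed line is the median of all genes (-0.33). All 4 tested genes of the Peg10-Sgce domain lie below 0, from -2.97 to -0.80, and both of the Peg3 domain above it. Of all 11959 genes tested, 8126 lie below 0, and the sign of Asb4 (-0.80) rests on 1 S3 array below background.

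Peg3, a zinc finger protein gene expressed from the paternal copy, heads an imprinted domain with Usp29, which encodes a ubiquitin protease and is also paternally expressed. The genes are read in opposite directions from starts 164 bases apart. The bases between them are shown because Peg3 rose in S3, with CpG dinucleotides, the sites of DNA methylation, in capitals. The sequence is from RefSeq on GRCm38.p6, chr7:6730420-6730582, plus strand, which is the Usp29 sense strand.
Peg3-Usp29 interval: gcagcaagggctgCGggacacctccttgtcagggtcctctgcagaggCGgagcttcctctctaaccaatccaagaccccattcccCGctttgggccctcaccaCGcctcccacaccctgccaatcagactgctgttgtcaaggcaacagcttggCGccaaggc
It holds 5 CpGs in 163 bases. Neither TGCCGC, the word bound by ZFP57 when methylated, nor GCCATNTT, a YY1 word, is in this window on either strand.

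Peg3 read 6.83, 7.05 and 7.32 in S1 and 9.03, 8.10 and 8.94 in S3. Every S3 array was above every S1 array, with the lowest S3 value in the short array. The means were 7.07 ± 0.25 and 8.69 ± 0.51 (SD, n = 3 each), a 3.07-fold rise (log2 difference 1.62 ± 0.33 SE, limma adjusted p = 0.0182). The rise was 1.66 in long arrays and 1.15 in short arrays. It missed the threshold without S1 replicate 1 (1.50, adjusted p = 0.0741), S1 replicate 2 (1.61, 0.0700), S3 replicate 1 (1.45, 0.0771) or S3 replicate 3 (1.49, 0.0824), and when probe sets were averaged (1.43, 0.230). The Peg3 probe sets of lower signal that were above background in a subset differed by 2.13 ± 0.74 and 2.55 ± 1.03 (SE), in the same direction.

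Usp29 read 2.30, 1.07 and 2.47 in S1 and 3.74, 2.99 and 3.35 in S3. The subsets did not overlap, but S1 replicate 2 was below background and the difference of 1.42 ± 0.54 did not pass the test (limma adjusted p = 0.129). Its other probe set, below background on every array, differed by -1.53 ± 0.77 with no overlap, and averaged over both probe sets the difference was -0.05. Zim1, the maternally expressed zinc finger gene of the domain, had a highest value of 1.53 and was not tested.

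Ddc, which encodes the decarboxylase that makes dopamine and serotonin, was the other gene that rose. Its values were 3.76, 3.52 and 4.03 in S1 and 6.59, 5.15 and 5.54 in S3. The subsets did not overlap, and the S3 arrays ranged more widely than the S1 arrays. The means were 3.77 ± 0.26 and 5.76 ± 0.75 (SD, n = 3 each), a 3.98-fold rise (log2 difference 1.99 ± 0.48 SE, limma adjusted p = 0.0330). The adjusted p was 0.0530 with no filter, 0.130 with probe sets averaged (difference 1.44), 0.0685 in short arrays alone (1.51), and 0.101, 0.107, 0.0519, 0.108 and 0.0946 without S1 replicate 1, 2 or 3 or S3 replicate 1 or 3.

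Grb10, the neighbour of Ddc, encodes an adaptor that restrains insulin and insulin-like growth factor receptor signalling. It was among the brighter genes, at 10.51, 10.49 and 10.56 in S1 and 10.21, 10.01 and 10.08 in S3, where the highest signal of any gene was 11.66. Its difference was small and its arrays tight. It fell by 0.42 ± 0.09 (SE; limma adjusted p = 0.0234), which is 0.09 below the median of all genes. Under median centring the difference was -0.19 (adjusted p = 0.791), and 13 of 20 other fits did not call it, among them each fit without an array other than S3 replicate 1. Its less bright probe sets differed by -0.71 and 0.11.

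Peg12 showed the clearest difference among the imprinted genes. It is an intronless, paternally expressed gene of the Prader-Willi and Angelman domain and encodes a relative of the FRAT proteins, which bind glycogen synthase kinase 3 and act in Wnt signalling. Its values were 7.39, 6.19 and 6.70 in S1 and 3.28, 3.53 and 2.70 in S3. All 3 S3 arrays stayed above background, and the gap between the subsets was wider than the range of either. The means were 6.76 ± 0.60 and 3.17 ± 0.43 (SD, n = 3 each), 12-fold lower in S3 (log2 difference -3.59 ± 0.47 SE, limma adjusted p = 0.00455). The fall was called in all 20 other fits, with differences from -3.87 to -3.03, and was -3.71 in long and -3.26 in short arrays.

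The 250 bases before its start are shown because of that fall, with CpGs in capitals (RefSeq, GRCm38.p6, chr7:62464511-62464760, minus strand).
Peg12 promoter: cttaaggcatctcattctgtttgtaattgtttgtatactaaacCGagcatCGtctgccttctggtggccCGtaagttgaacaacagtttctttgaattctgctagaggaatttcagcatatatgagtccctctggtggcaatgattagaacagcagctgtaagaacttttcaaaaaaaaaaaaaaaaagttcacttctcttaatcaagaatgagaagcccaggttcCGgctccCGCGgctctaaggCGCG
The window holds 8 CpGs, of which most lie close to the start. Neither the ZFP57 word nor the YY1 word is in it.

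The other genes of that domain did not pass the test without a block. Ndn, which encodes the growth suppressor necdin, read 4.09, 3.07 and 2.40 in S1 and 0.09, 2.59 and 2.07 in S3 (difference -1.60 ± 0.79, limma adjusted p = 0.229), and the S3 values overlapped those of S1. Snrpn, a splicing protein gene read from the domain's control region, differed by 0.05 ± 0.67. Ube3a, a ubiquitin ligase gene that is imprinted in neurons, was bright and differed by -0.46 ± 0.37 (adjusted p = 0.494). Of its 5 other probe sets 4 were negative, from -1.14 to -0.64, and 1 was 0.67. Ube3a was -0.76 with the array class as a block and passed (adjusted p = 0.00229). Mkrn3, a RING finger gene, was above background in 2 S1 arrays and in no S3 array, at 0.85, 2.04 and 1.75 against -0.97, -3.61 and -0.66. Its S1 mean was at least 1.23-fold higher than the S3 background, and it was not tested. Magel2 was near background in both subsets. Atp10a varied widely, at 3.75, 1.05 and -1.47 in S1 and 1.15, 0.39 and -0.64 in S3. Neither gene was tested.

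In the Peg10-Sgce domain, 2 of 4 tested genes fell, where 12.8% of all genes fell. Peg10, a gene derived from a retrotransposon and needed in the placenta, read 5.63, 5.25 and 5.63 in S1 and 3.56, 0.97 and 3.08 in S3. The S1 arrays were close together and S3 replicate 2 was below background. Its log2 difference was -2.97 ± 0.70 (limma adjusted p = 0.0296), or -2.88 with that value raised to background. It did not pass without S1 replicate 1, 2 or 3 (adjusted p = 0.101, 0.0856 and 0.0625) or S3 replicate 3 (0.0690), and was -2.31 in long and -4.47 in short arrays.

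Ppp1r9a encodes neurabin, an actin-binding partner of protein phosphatase 1. It read 6.88, 7.70 and 7.37 in S1 and 5.19, 5.16 and 5.59 in S3. The S3 values were tight and lay well below all S1 values. The means were 7.32 ± 0.41 and 5.31 ± 0.24 (SD, n = 3 each; log2 difference -2.01 ± 0.37 SE, limma adjusted p = 0.0128). Its 4 other probe sets were also negative, from -2.84 to -0.20. The averaged probe sets gave -1.58 (adjusted p = 0.106), and the call was lost without S1 replicate 2 (0.0621) or S3 replicate 1 (0.0527). Sgce, the sarcoglycan epsilon gene that shares its promoter region with Peg10, differed by -1.35 ± 0.86 and Asb4, which encodes an ankyrin repeat protein, by -0.80 ± 1.32. Neither passed, and for both the short S3 array had the lowest value, -0.52 and -1.96. With values raised to background, Sgce differed by -0.77 and Asb4 by 0.26. Their other probe sets, near or below background, differed by -2.06 and 0.43. Sgce was -1.97 with the array class as a block and passed (adjusted p = 0.0310).

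**Figure D3:**
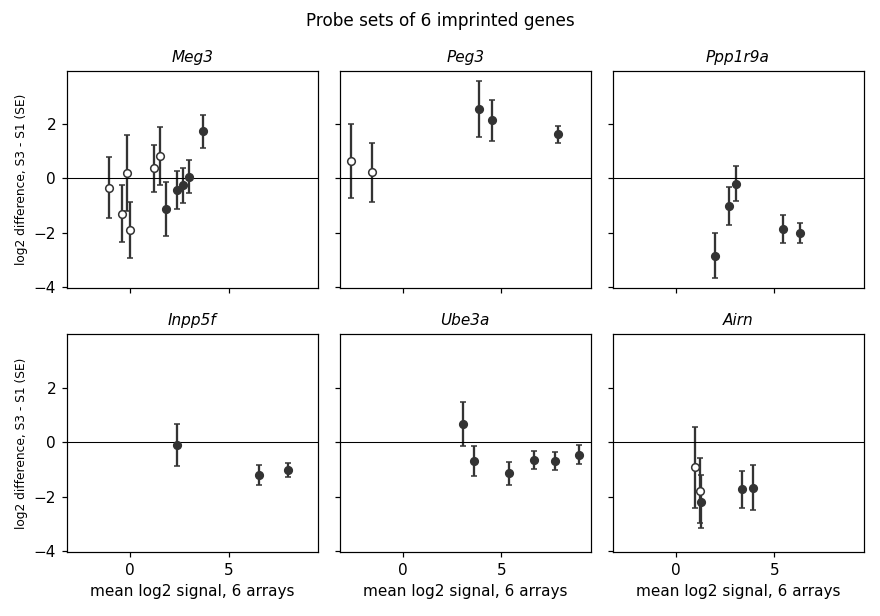
Difference in log2 signal, S3 minus S1, with its standard error, against the mean log2 signal over 6 arrays, for every probe set of 6 imprinted genes; filled points were above background on all 3 arrays of a subset. All probe sets of Ppp1r9a, Inpp5f and Airn lie below 0 and all of Peg3 above it, while those of Meg3 lie on both sides.

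On distal chromosome 7, the H19-Igf2 and Kcnq1 domains gave 9 tested genes, of which Cd81 and Nap1l4 fell, where 12.8% of all genes fell. Cd81 encodes a tetraspanin of the cell surface. It read 9.67, 9.82 and 9.44 in S1 and 8.36, 8.52 and 8.17 in S3, with little spread in either subset. The means were 9.64 ± 0.19 and 8.35 ± 0.18 (SD, n = 3 each; log2 difference -1.29 ± 0.18 SE, limma adjusted p = 0.00574). The fall was called whichever array was left out. It was not called under median centring (-1.06, adjusted p = 0.105) or trimmed mean scaling (-1.02, 0.0658).

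The Cd81 promoter window is shown because Cd81 fell whichever array was left out, with CpGs in capitals (RefSeq, GRCm38.p6, chr7:143052500-143052749, plus strand).
Cd81 promoter: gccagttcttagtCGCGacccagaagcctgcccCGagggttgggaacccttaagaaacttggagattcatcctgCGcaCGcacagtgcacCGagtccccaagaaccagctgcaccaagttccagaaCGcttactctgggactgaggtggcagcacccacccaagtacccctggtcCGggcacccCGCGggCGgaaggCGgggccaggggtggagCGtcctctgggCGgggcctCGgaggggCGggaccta
It holds 16 CpGs, against 8 in the Peg12 window of the same length, at a GC share of 65.6% against 42%. The observed-to-expected CpG ratio was 0.595 in Cd81 and 0.726 in Peg12. Neither word is in this window.

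Nap1l4, a histone chaperone gene, read 9.99, 10.15 and 10.12 in S1 and 9.61, 9.67 and 9.73 in S3. The arrays did not overlap. It fell by 0.42 ± 0.11 (SE; limma adjusted p = 0.0402), 0.08 below the median of all genes. The call was lost in 14 of 20 other fits, among them every fit that left out an array, and the difference was 0.0234 with the array class as a block and median centring. Tspan32, a tetraspanin gene of blood cells, read 6.35, 6.31 and 8.23 in S1 and 8.71, 7.02 and 8.69 in S3. Its long arrays were higher than its short arrays in each subset, and the difference of 1.18 ± 0.67 did not pass the test (adjusted p = 0.301). With the array class as a block it was 0.58 and passed (adjusted p = 0.0155). The other Tspan32 probe set, above background on every array, differed by 1.79 ± 0.54 with no overlap (limma adjusted p over all probe sets 0.125).

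The remaining genes of these domains did not pass. Kcnq1ot1, the paternal noncoding RNA of the Kcnq1 domain, differed by -0.47 ± 0.81, with an S1 range of 4.65 to 8.0. Tssc4 differed by 0.28 ± 0.57 and Slc22a18, a transporter gene, by -0.94 ± 0.82. Ascl2, a transcription factor gene of trophoblast, differed by 1.26 ± 0.78 at signals of at most 2.49. Phlda2, a restrainer of placental growth, differed by -0.06 ± 0.81.

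Igf2, the paternally expressed fetal growth factor, and Dlk1, a paternally expressed membrane protein of hepatoblasts and stromal cells, had a wider range within each subset than the difference between the subset means. Igf2 read 2.72, 2.27 and 4.82 in S1 and 6.18, 2.94 and 5.53 in S3 (difference 1.61 ± 1.00, limma adjusted p = 0.349). Its other probe set, below background on every array, differed by -2.27 ± 0.84 with no overlap, and averaging probe sets gave -0.33. Dlk1 read 2.01, 1.00 and 5.19 in S1 and 6.66, 1.68 and 5.96 in S3 (2.03 ± 1.52, adjusted p = 0.451), and its other probe set differed by 0.05 ± 0.65. Both were high in the 3 long arrays and low in the 3 short ones, in either subset, and the Dlk1 value of S1 replicate 2 was below background. With the array class as a block the differences were 0.74 (adjusted p = 0.139) and 0.64 (0.278).

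Some hepatocyte markers were also lowest in the short S3 array or highest in the long S3 arrays. Afp, the fetal liver plasma protein, read 6.44, 6.39 and 7.21 in S1 and 8.58, 5.74 and 8.32 in S3. Alb, serum albumin, read 4.73, 4.65 and 5.87 in S1 and 7.50, 5.05 and 6.72 in S3. Ttr, the thyroid hormone carrier (difference 1.22, limma adjusted p = 0.0768), and the apolipoprotein gene Apoa2 (1.22, 0.166) had higher values in every S3 array than in any S1 array. Apoa1 and Hnf4a, by contrast, were lowest in a long array, at 4.48 in S1 replicate 3 and 2.07 in S3 replicate 3. Of 10 hepatocyte markers listed, 8 were measured and tested, and none passed. At an unadjusted p under 0.05 in limma, 2 were higher and none lower. The differences were positive in 4 and negative in 4, namely Apoa1 (-0.36), Ahsg (-0.32), Hnf4a (-0.82) and Fgb (-0.19). Of the 8, 7 were above background on every array. Their summed level was 8.20 to 8.46 in S1 and 8.01 to 9.98 in S3, with the 8.01 in S3 replicate 2. In that array Ttr (6.22), Apoa2 (5.52), Peg3 (8.10) and Ddc (5.15) were above every S1 array. The part of hepatocyte RNA in the values of Igf2, Dlk1, Peg3 and Ddc was not tested.

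**Figure D4:**
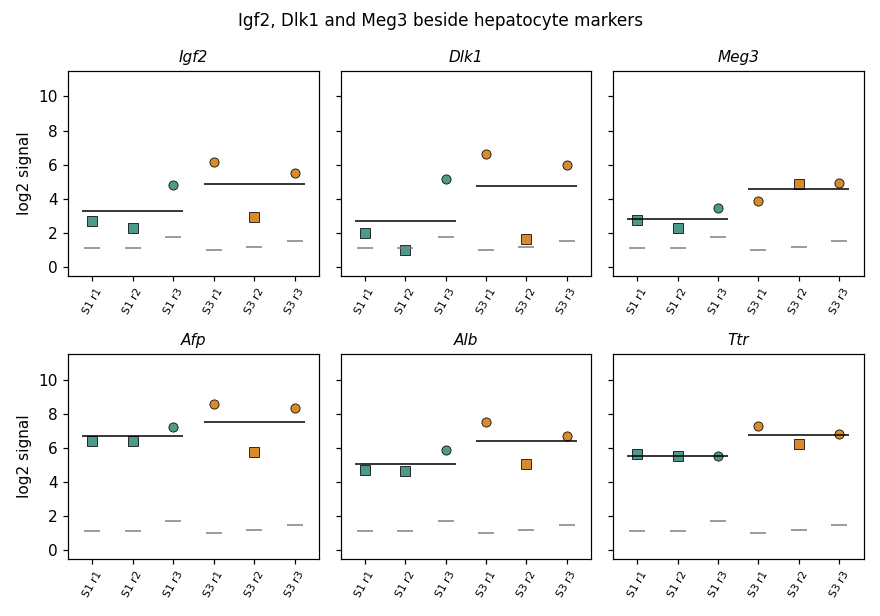
Log2 signal of Igf2, Dlk1 and Meg3 (top) and of the hepatocyte markers Afp, Alb and Ttr (bottom) on each array (circles, long arrays; squares, short arrays; green, S1; orange, S3; grey ticks, background; black lines, subset means). Igf2 and Dlk1 are highest in S3 replicates 1 and 3 and next in S1 replicate 3, all long arrays. Meg3 and Ttr, by contrast, are higher in all S3 arrays than in any S1 array. Of the 8 hepatocyte markers tested, 4 were lower in S3 on average, and none of those is drawn.

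Among markers of other cells, no stromal (5 tested), endothelial (3) or macrophage (4) marker was called, and by limma none of them had an unadjusted p under 0.05. Megakaryocyte markers, which an erythroid gate can include, summed to 6.32 to 7.46 in S1 and 8.47 to 8.57 in S3. Of the 6 tested, Vwf alone was called. It encodes the platelet adhesion protein von Willebrand factor and rose by 2.72 (limma adjusted p = 0.0244). Pf4, Gp9 and Ppbp were higher in every S3 array than in any S1 array but were not called. Gp1bb (difference 0.32) and Itga2b (-0.31) overlapped between subsets. All 6 megakaryocyte markers were above background on every array. Their part in the Peg3 and Ddc values was not tested.

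In the Dlk1-Meg3 domain, Meg3, a maternally expressed noncoding RNA, read 2.77, 2.27 and 3.46 in S1 and 3.86, 4.87 and 4.94 in S3. The subsets did not overlap, and the difference of 1.72 ± 0.52 missed the threshold (limma adjusted p = 0.0655). It passed under median centring (1.95, 0.0320), quantile normalisation (2.02, 0.0356), trimmed mean scaling (2.00, 0.0336) and with the array class as a block (1.64, 0.0170). Meg3 has 11 probe sets, and the 4 others above background in a subset differed by 0.06, -0.25, -0.44 and -1.12. Averaged over probe sets the difference was -0.20, so the direction rests on the brightest. The small RNA hosts Rian and Mirg differed by 0.21 ± 0.58 and -0.03 ± 0.68.

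Inpp5f, which encodes a phosphatase of membrane phosphoinositides and has an imprinted variant, read 8.56, 8.31 and 8.75 in S1 and 7.54, 7.25 and 7.72 in S3. The subsets were apart by more than the spread within each. It fell by 1.04 ± 0.25 (SE; limma adjusted p = 0.0325), but was not called in any fit that left out an array (adjusted p from 0.0654 to 0.113) or under median centring (-0.81, 0.139). Its other probe sets differed by -1.20 ± 0.37 and -0.10 ± 0.78, and the array does not name which variant each reads.

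Blcap, a small gene that shares a locus with Nnat, came close to the threshold. It read 7.92, 7.78 and 7.48 in S1 and 7.08, 6.25 and 6.33 in S3, with no overlap (difference -1.17 ± 0.34, limma adjusted p = 0.0598). It passed in 4 of 20 other fits, with the array class as a block at -1.19 (adjusted p = 0.00404). Nnat, the neuronatin gene inside the Blcap intron, had values from -0.82 to 2.05 and was not tested. H13, a signal peptide peptidase gene, differed by -0.51 ± 0.45, and by -0.81 with the array class as a block, where it passed (adjusted p = 0.0182). Gnas, the stimulatory G protein subunit gene, differed by 0.34 ± 0.42.

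Igf2r, the maternally expressed receptor that clears IGF2, and Airn, the paternal antisense RNA that silences it, were both lower in S3 on average and neither passed the test without a block. Igf2r read 7.37, 7.28 and 8.42 in S1 and 7.20, 6.42 and 7.39 in S3 (difference -0.68 ± 0.43, limma adjusted p = 0.355). With the array class as a block it was -1.01 and passed (adjusted p = 0.00105). Airn read 3.10, 6.15 and 4.94 in S1 and 3.05, 2.34 and 3.78 in S3 (difference -1.67 ± 0.81, adjusted p = 0.224). The 5 Airn probe sets were all negative, from -2.18 to -0.93, although the S1 arrays differed widely. Airn was -1.90 in that blocked fit and passed (adjusted p = 0.0465).

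The other tested genes did not pass in the fit without a block. Mest, a hydrolase-like gene of mesoderm, differed by -0.05 ± 0.59, and its neighbour Copg2, a vesicle coat gene, by -0.07 ± 0.62. Copg2 was -0.58 with the array class as a block, where the median of all genes was -0.54, and passed (adjusted p = 0.0484). Plagl1, a zinc finger regulator of other imprinted genes, differed by 0.30 ± 0.44. Commd1, which acts in copper handling, differed by 0.30 ± 0.54, Trappc9, a vesicle tethering gene, by 0.04 ± 0.45 and Impact, a regulator of translation under stress, by -0.72 ± 0.45. Rasgrf1, a Ras activator gene, read 2.11, 2.12 and 1.41 in S1 and 1.26, 1.02 and 0.35 in S3, with no overlap, close to background (difference -1.0 ± 0.52, limma adjusted p = 0.259). Nap1l5 was at or near background.

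With the array class as a block, 4 of the 38 genes were higher in S3, Meg3, Peg3, Tspan32 and Ddc, against 5.81% of all genes. In that fit 14 were lower, against 41.2% of all genes, and the median of all genes was -0.54. With median centring added to the block, 5 were higher and 5 lower, against 8.56% and 16.8%. Those lower were Peg10, Peg12, Cd81, Ppp1r9a and Airn. Called lower with the block alone, but not with centring added, were Igf2r, Grb10, Nap1l4, Sgce, Ube3a, Inpp5f, Blcap, H13 and Copg2.

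**Figure D5:**
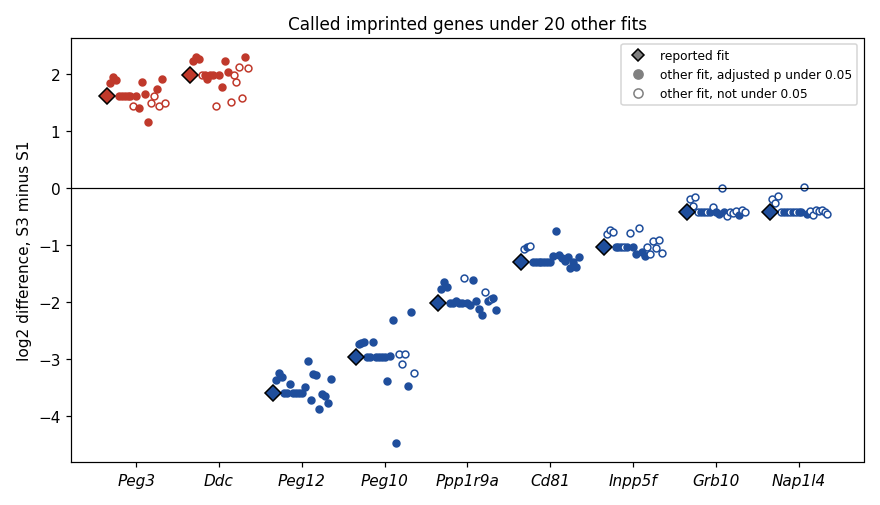
Difference in log2 signal, S3 minus S1, of the 9 genes that passed the test, in the reported fit (diamonds) and in 20 other fits (circles, filled where the adjusted p was under 0.05; red, higher in S3; blue, lower). Every circle of Peg12 is filled, and those of Grb10 and Nap1l4 come nearest to 0.

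Of 21 listed factors that keep imprints, 18 were tested; 3 fell and none was called higher, against 12.8% and 2.53% of all genes. The median difference was -0.16, with 5 positive and 13 negative, and by limma none was higher and 6 were lower at an unadjusted p under 0.05. Trim28, the co-repressor that ZFP57 recruits, read 10.40, 10.06 and 10.16 in S1 and 8.78, 9.09 and 8.89 in S3 (log2 difference -1.29 ± 0.15, limma adjusted p = 0.00357). The subsets were far apart relative to their spread. Ehmt1, a histone methyltransferase gene, fell by 1.59 ± 0.32 (adjusted p = 0.0192), and Hells, a chromatin remodeller gene needed for DNA methylation, fell by 1.18 ± 0.21 (adjusted p = 0.0113). Zfp57 itself and Dppa3 were too dim to test. Dnmt1 (difference 0.20 ± 0.40, limma adjusted p = 0.809) and Uhrf1 (0.05 ± 0.08, 0.783) were bright and not called. The brightest Zfp445 probe set differed by 0.20 and was not called. Its other probe sets differed by -1.60 and -1.18, with no overlap.

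In the insulin-like growth factor pathway, to which Igf2, Igf2r and Grb10 belong, 11 of 15 further listed genes were tested, and 2 fell and none was called higher, against 12.8% and 2.53% of all genes. Their median was -0.31, beside -0.33 for all genes. By limma none was higher and 3 were lower at an unadjusted p under 0.05. Igf2bp1 and Igf2bp3 encode proteins that bind the Igf2 messenger RNA among others. Igf2bp1 read 8.93, 8.50 and 9.11 in S1 and 6.74, 6.04 and 6.99 in S3 (log2 difference -2.26 ± 0.34, limma adjusted p = 0.00688). Igf2bp3 fell by 1.81 ± 0.32 (adjusted p = 0.0121), with S1 and S3 arrays apart in both genes.

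Of 28 further imprinted genes listed, 25 were measured and 13 tested, and none was called, with a median difference of -0.08; by limma 1 was higher and none lower at an unadjusted p under 0.05. Ano1, a chloride channel gene, had the smallest p, at 7.09, 6.75 and 7.06 in S1 and 8.74, 7.64 and 8.23 in S3 (difference 1.23 ± 0.34, adjusted p = 0.0509). Cdkn1c, a cell cycle inhibitor gene, differed by 2.32 ± 1.01 (adjusted p = 0.179).

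Promoters of the imprinted genes were set beside all windows of the RefSeq promoter table (GRCm38.p6, 250 bases before the start). Of the 50 genes 43 had an entry, with 63 windows. The median window held 10 CpGs, with a range of 0 to 40, against 6 over 32851 windows of 27025 genes. A GC share over 50% with an observed-to-expected CpG ratio over 0.6 held for 30 of the 63 windows (47.6%), against 30.8% of all windows. TGCCGC on either strand was in 9 (14.3%, against 8.68%) and GCCATNTT in 2 (3.17%, against 3.91%). These matches describe the letters only; windows of a gene with several starts can overlap, and the words can share their end letters where they adjoin.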

How the data were processed

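Affymetrix whole-genome mouse expression arrays were used, 3 of S1 and 3 of S3. The deposited values are log2 signals that, per the labels and the submitters' processing notes, the authors made with MAS5 and scaled to 18S, Gapdh and beta-actin; the MAS5 version is not given in the sources used here and base 2 was inferred from the range of values. No further scaling was applied. Probe sets were named through the platform annotation: of 45101 probe sets, 34945 had 1 symbol, 932 several, 9160 none and 64 were controls, and those with several symbols were not used. Each gene was read by its brightest probe set (highest mean over 6 arrays), above the 40th percentile of non-control probe sets. Genes were tested with limma 3.58.1 in R 4.3.3 (lmFit, eBayes with intensity trend, 4 residual and 3.41 prior degrees of freedom), two-sided, with Benjamini-Hochberg adjustment; the code was tested on simulated data. An exact permutation of 3 against 3 arrays cannot go below p = 0.1, so none was used. Number of arrays limits the precision.

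Named were all called genes, those above background on all 3 arrays of a subset, those at least 2-fold apart without overlap, and up to 4 called genes per further list (or the 2 with the smallest p). The genes, lists and alternatives were chosen with earlier results of these data known. Alternatives were 3 scalings, 2 filters, an added constant, 2 variance settings, averaged probe sets, blocks by replicate number and by array class, each class alone, and each array left out.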

Additional observations from a re-analysis of the deposited data

How the results depend on the processing

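The 9 imprinted genes called kept their direction under all 20 alternative fits run, except Nap1l4, whose difference was 0.0234 with the array class as a block and median centring; the cause was not tested. Imprinted genes called higher in S3 (2) numbered 3 under median centring and under trimmed mean scaling (4% and 5.15% of all genes). They numbered 4 under quantile normalisation and with the array class as a block (5.84% and 5.81%). With that block and median centring they numbered 5 (8.56%), with no filter 1 (1.5%) and with probe sets averaged 0. In the averaged fit, limma found 2 at an unadjusted p under 0.05. Those called lower (7) numbered 3 under median centring, trimmed mean scaling and averaged probe sets, 4 under quantile normalisation and without the intensity trend, 5 with no filter and with the block and median centring, 13 in long arrays alone and 14 with the block. With each array left out in turn the counts ran from 0 to 2 higher (3 to 8 at an unadjusted p under 0.05 by limma) and 2 to 4 lower, and over all genes (302 higher, 1533 lower) from 119 to 370 and from 541 to 1273.

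Over all genes, the count higher was 478 under median centring, 698 under quantile normalisation, 616 under trimmed mean scaling, 695 with the class block, 1024 with that block and median centring, and 617 in long arrays alone; the count lower was 972 under median centring, 796 with averaged probe sets, 4922 with the class block, 4151 in long and 2601 in short arrays. The deviations of same-numbered arrays correlated with r of -0.19, 0.36 and 0.43, so not every pair was above 0.1 and the numbers were not taken as pairs; those of replicates 2 and 3 also share an array class. A replicate block gave 2 imprinted genes higher and 8 lower, and 412 and 1897 over all genes. Signals near background, as for Mkrn3, Ascl2 and Rasgrf1, limit what can be measured.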
